A study of Homo sapiens with 6 samples.

Results

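The EGFR (ErbB) family of receptors and its ligands was followed through 10 genes of CAL62 cells, an established line derived from an anaplastic thyroid carcinoma, after treatment with the small molecule erianin. The genes were listed by name as members of the family, with earlier results of these data known: the receptors EGFR, ERBB2 and ERBB3, the ligands AREG, EREG, HBEGF, TGFA, BTC and NRG1, and the receptor inhibitor ERRFI1. All 10 were found among the 39168 Ensembl gene identifiers of the count and TPM tables, each on 1 row. RNA sequencing compared 3 libraries of cells given 50 nM erianin for 48 h with 3 libraries of cells given the solvent DMSO for 48 h. Both groups are wild type by their label, carry no transgene, and are replicate treatments of a single line. Whether replicates came from separate cultures is not stated in the sources used here, so p-values measure the spread between these libraries, which may be partly technical.

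ErbB receptors are transmembrane tyrosine kinases that pair when a ligand binds the outer part of one of them. EGFR binds AREG, TGFA, HBEGF, BTC and EREG, and ERBB3, whose own kinase is weak, binds neuregulins such as NRG1. ERBB2 has no known soluble ligand and is the favoured partner of the others. The ligands are made as membrane-bound precursors that surface proteases cut loose, and the activated receptors feed the Ras-MAPK and PI3K-Akt routes, which drive growth in thyroid carcinoma and many other epithelial tumours. ERRFI1 (MIG6) binds the kinase domain of EGFR and holds it inactive.

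Reads counted on named genes ranged from 25776301 to 34107727 per library. DMSO replicate 3 stood apart: DMSO replicates 1 and 2 lay at a distance of 41.3 from each other and of 67.8 and 65.7 from DMSO replicate 3, and the erianin libraries lay at 29.6 to 30.6 from one another (Euclidean distance over log2 CPM of the genes tested). DMSO replicates 1 and 2 lay at 61.4 to 66.4 from the erianin libraries, about as far as from DMSO replicate 3. The erianin libraries lay at 72.3 to 73.3 from DMSO replicate 3. Because DMSO replicate 3 stood apart, results are given with and without it. Of the thyroid follicular markers, TSHR and NKX2-1 had no reads in any library and TG and SLC5A5 had at most 13, whereas PAX8 stood between 105 and 150 TPM. The carcinoma markers KRT7, KRT8, KRT18, KRT19 and VIM stood between 149 and 673 TPM in every library and EPCAM between 15.7 and 23.4 TPM, and the blood and endothelial markers PTPRC, CD3E, PECAM1 and CDH5 had at most 10 reads, with CD14 at 1.83 to 5.35 TPM. PAX8 and the keratins of a thyroid carcinoma line were thus present, and TSHR, NKX2-1, TG and SLC5A5 were at or near 0.

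Levels of 1 gene in different libraries are given in TMM-normalised CPM (reads of a gene per 1000000 reads), which correct for library size but not for gene length. The groups were compared by the quasi-likelihood test of edgeR on raw counts, with Benjamini-Hochberg adjustment over the 12821 genes tested. A differentially expressed gene (DEG) had to reach an adjusted p under 0.05 together with an absolute log2 fold change over 0.5. By the adjusted p alone, 3 of the 10 genes were higher with erianin (AREG, HBEGF and TGFA), against 7.22% of all genes tested, and 2 were lower (EGFR and ERBB2), against 7.69%. Of these, AREG was a DEG in the higher direction, a call made for 5.37% of all genes, and EGFR in the lower direction, a call made for 3.36%. Without DMSO replicate 3, 4 of the 10 genes were higher by the adjusted p and 3 were lower, when 27.5% and 27.7% of all genes were, and AREG was the only DEG among them, against 11.4% of all genes called higher and 6.11% called lower. The spread between libraries of a group beyond counting noise, as a common coefficient of variation in edgeR, was 0.139 with all libraries. It was 0.0421 without DMSO replicate 3, and between 0.137 and 0.159 with any other library left out. DMSO replicate 3 was singled out after the distances were seen. Without it, the small standard errors and p-values rest on the similar DMSO replicates 1 and 2 and on the erianin libraries, which lay closer together still. On the log2 scale, the median change of the 10 genes was 0.15 with all libraries, and that of all genes tested was 0.00. EREG passed the filter on low counts only through the erianin group. In bulk RNA, fewer cells that express a gene and less RNA of that gene per cell cannot be told apart.

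**Figure D1:**
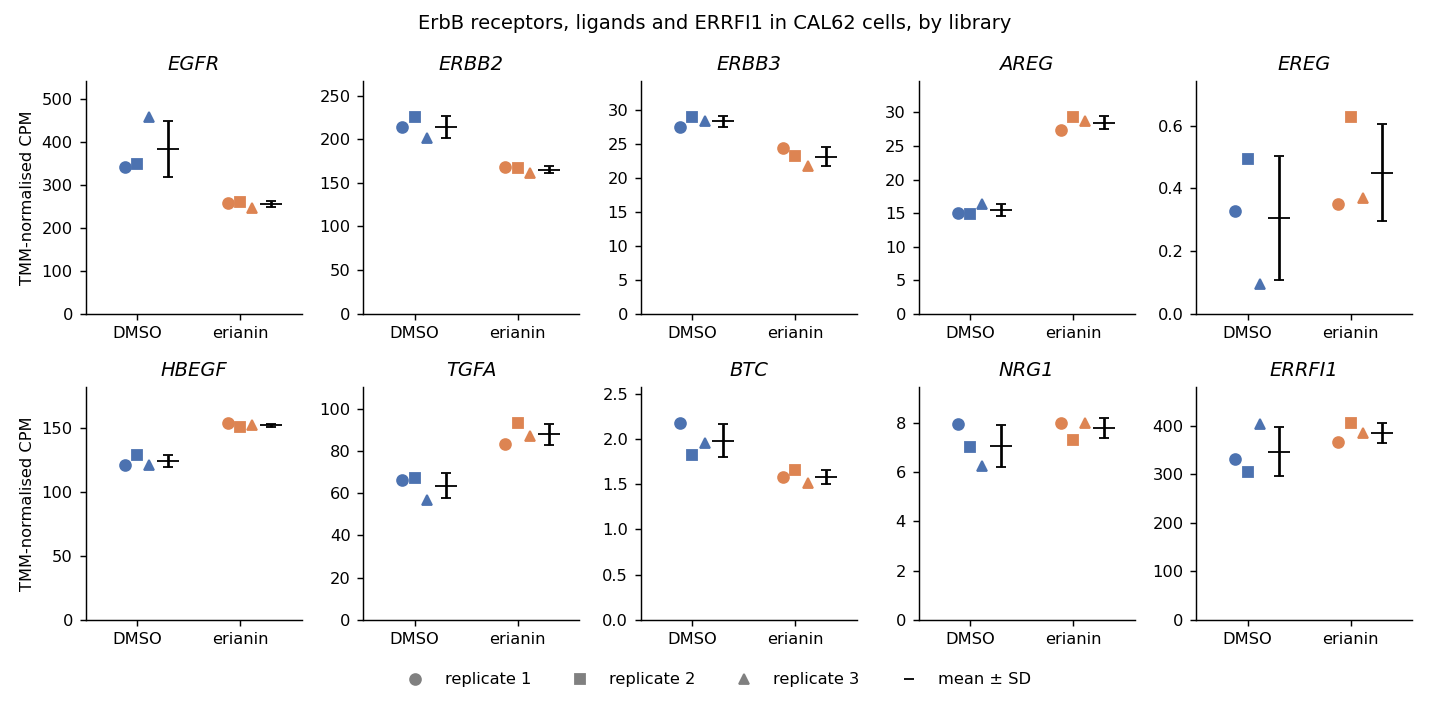
TMM-normalised CPM (vertical axes, linear and starting at 0) of the 10 genes in each DMSO (blue) and erianin (orange) library, with the replicate shown by the marker shape and the mean ± SD of 3 libraries as a cross with bars. The groups are apart for EGFR, ERBB2, ERBB3, AREG, HBEGF, TGFA and BTC; EGFR of DMSO replicate 3, at 459 CPM, lies above the other DMSO libraries.

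EGFR, the receptor bound by most of these ligands, stood at 342, 348 and 459 CPM in DMSO replicates 1, 2 and 3 and at 257, 261 and 246 CPM in erianin replicates 1, 2 and 3. All erianin libraries were below all DMSO libraries, and DMSO replicate 3 was the highest of the 6. EGFR fell by 33.5%, with a log2 fold change of -0.59 ± 0.12 (SE, n = 3 per group, 95% interval from -0.87 to -0.31, edgeR adjusted p = 0.0188). Without DMSO replicate 3 the log2 fold change was -0.44 ± 0.04 (edgeR adjusted p = 6.03e-11), below the fold-change threshold for a DEG. With erianin replicate 1, 2 or 3 left out, EGFR did not pass (edgeR adjusted p = 0.0842, 0.0863 and 0.0987), nor did it in limma on TPM rescaled to equal totals (-0.55 ± 0.17, adjusted p = 0.0889). The gene lies at chr7:55019021-55211628 (GRCh38, plus strand), and 186 of its exon bases are shared with the antisense gene EGFR-AS1, which had 0 reads.

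ERBB2, the receptor without a soluble ligand, stood at 214, 226 and 201 CPM with DMSO and at 168, 167 and 161 CPM with erianin. The erianin libraries were close together and all below the DMSO libraries. ERBB2 fell by 22.6%, with a log2 fold change of -0.37 ± 0.07 (95% interval from -0.54 to -0.20, edgeR adjusted p = 0.0156), which is under the threshold for a DEG. The value without DMSO replicate 3 was -0.42 ± 0.04 (edgeR adjusted p = 5.61e-10). When any other single library was left out, the edgeR adjusted p was between 0.053 and 0.0988, with the log2 fold change between -0.39 and -0.33. On log2(TPM + 1), where the median of all genes lay at 0.17, ERBB2 was at -0.16 ± 0.09 (limma adjusted p = 0.243). With TPM rescaled to equal totals it was at -0.34 ± 0.07 and passed (limma adjusted p = 0.0294). Exons of ERBB2 (chr17:39687914-39730426, plus strand) share 194 bases with PGAP3 and 571 with MIEN1 on the other strand. Those genes had 2143 and 1236 reads over all libraries, and since the use of strand in counting is not stated, a part of these reads cannot be assigned with certainty.

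ERBB3, the neuregulin receptor, was the least abundant of the 3 receptors, at 27.5, 29 and 28.4 CPM with DMSO and 24.4, 23.2 and 21.7 CPM with erianin. The groups did not overlap, but the log2 fold change of -0.29 ± 0.09 did not pass (95% interval from -0.51 to -0.08, edgeR adjusted p = 0.0709). Without DMSO replicate 3 it was -0.30 ± 0.08 and passed (edgeR adjusted p = 0.00131), as it did in DESeq2 on all libraries (adjusted p = 0.0204). All 3 receptors thus had lower values with erianin, and 2 of the 3 passed the adjusted p, beside 7.69% of all genes lower. Without DMSO replicate 3 all 3 passed, beside 27.7% of all genes. None passed with the replicate number as a block in the fit. On log2(TPM + 1) EGFR alone passed, and with TPM rescaled to equal totals ERBB2 alone passed. In all, CPM was lower in every erianin library than in every DMSO library for 4 of the 10 genes (EGFR, ERBB2, ERBB3 and BTC), against 19.3% of all genes tested, and higher for 3 (AREG, HBEGF and TGFA), against 19.5%.

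AREG, an EGFR ligand of low affinity, had the largest fold change of the 10 genes in the fit of all libraries. Its CPM was 15, 14.9 and 16.4 in the DMSO libraries and 27.4, 29.4 and 28.8 in the erianin libraries. Each group was tight, DMSO replicate 3 included, and the lowest erianin library was well above the highest DMSO library. AREG rose 1.85-fold, a log2 fold change of 0.89 ± 0.09 (95% interval from 0.67 to 1.11, edgeR adjusted p = 0.00274), from 365, 482 and 512 raw reads to 936, 1027 and 1007. It passed with each of the 6 libraries left out in turn (edgeR adjusted p = 1.77e-11 to 0.0333), and was 0.93 ± 0.08 without DMSO replicate 3.

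The deposited files hold expression values only, so the promoters of AREG, of the most abundant ligand (HBEGF) and of the one receptor that was a DEG (EGFR) are shown as the sequence context of these genes. They are the 200 bases before the RefSeq start (GRCh38.p14), 5′ to 3′ on the strand of the gene: chr4:74444936-74445135 (plus) for AREG, chr5:140346604-140346803 (minus) for HBEGF and chr7:55018817-55019016 (plus) for EGFR. Capitals mark matches on either strand to a cAMP response element (CRE, TGACGTCA), a TATA box (TATAAA) or a GC box (GGGCGG). The last bases of the HBEGF window lie within the first exon of GENCODE release 29, which starts further upstream.
AREG: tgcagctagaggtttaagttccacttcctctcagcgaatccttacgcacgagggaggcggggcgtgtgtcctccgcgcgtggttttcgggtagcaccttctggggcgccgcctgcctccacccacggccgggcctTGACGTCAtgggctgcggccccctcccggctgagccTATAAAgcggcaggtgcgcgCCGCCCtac
HBEGF: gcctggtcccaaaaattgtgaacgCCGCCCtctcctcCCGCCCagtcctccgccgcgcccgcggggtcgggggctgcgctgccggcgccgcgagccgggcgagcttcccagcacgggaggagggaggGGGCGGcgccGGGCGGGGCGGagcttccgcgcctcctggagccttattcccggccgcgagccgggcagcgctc
EGFR: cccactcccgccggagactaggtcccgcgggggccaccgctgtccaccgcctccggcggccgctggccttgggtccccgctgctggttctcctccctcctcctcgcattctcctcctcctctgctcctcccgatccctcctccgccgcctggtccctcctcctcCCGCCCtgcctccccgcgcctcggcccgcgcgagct

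The AREG window held 1 CRE with its first base at -65 from the start, 1 TATA box at -29 and 1 GC box at -9. HBEGF held 5 GC boxes between -176 and -58 and no TATA box. EGFR held 1 GC box at -36 in the bases shown. The GC content of the 3 windows was 67%, 78% and 75.5%. Searches covered 300 bases per promoter, 250 before and 50 after the start, in 10 windows of the 8 genes matched by symbol; ERBB3 and NRG1 were not among them. Of 35116 promoters of that length, 1.85% held the CRE, 11.5% the TATA box and 45% the GC box. AREG had the only CRE among the windows of these genes, and EREG and the second EGFR start also held a TATA box. The AP-1 letters TGANTCA (7.71% of promoters) occurred in the ERBB2 window and at the second EGFR start, the TEAD letters GGAATG (14%) in the EREG window and at the second EGFR start, and the ATF4 letters TGATGNAA (3.62%) in none of them. A match describes letters and does not show binding.

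HBEGF, a ligand of EGFR and ERBB4 that also serves as the diphtheria toxin receptor, stood at 121, 129 and 121 CPM with DMSO and at 154, 151 and 152 CPM with erianin. All erianin libraries were above all DMSO libraries, with little spread. HBEGF rose 1.23-fold, a log2 fold change of 0.30 ± 0.06 (95% interval from 0.15 to 0.45, edgeR adjusted p = 0.0234), short of the DEG threshold. It was 0.28 ± 0.04 without DMSO replicate 3 (edgeR adjusted p = 3.4e-06), and with any other single library left out the edgeR adjusted p was between 0.0552 and 0.124. Without the filter on low counts it was 0.0501.

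TGFA, the classical autocrine ligand of EGFR in carcinomas, stood at 66.4, 67.2 and 56.6 CPM with DMSO and at 83.2, 93.3 and 87.0 CPM with erianin. The groups were apart, and DMSO replicate 3 was the lowest library. TGFA rose 1.38-fold, a log2 fold change of 0.47 ± 0.09 (95% interval from 0.25 to 0.69, edgeR adjusted p = 0.0184), just short of the DEG threshold. Without DMSO replicate 3 it was 0.39 ± 0.05 (edgeR adjusted p = 2.69e-07). It did not pass with DMSO replicate 1 left out (edgeR adjusted p = 0.0506) or with erianin replicate 1, 2 or 3 left out (edgeR adjusted p = 0.0742, 0.0993 and 0.091).

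BTC and EREG, which bind both EGFR and ERBB4, were rare. BTC (betacellulin) had 53 to 61 reads per library, or 2.18, 1.82 and 1.96 CPM with DMSO and 1.58, 1.66 and 1.51 CPM with erianin. The erianin libraries were below the DMSO libraries, but the log2 fold change of -0.32 ± 0.18 did not pass (95% interval from -0.73 to 0.09, edgeR adjusted p = 0.269). EREG (epiregulin) had 8, 16 and 3 reads with DMSO and 12, 22 and 13 with erianin. The EREG groups overlapped, and its log2 fold change of 0.55 ± 0.55 had a 95% interval from -0.72 to 1.82 (edgeR adjusted p = 0.543). The EREG value without DMSO replicate 3 was 0.10 ± 0.50 (edgeR adjusted p = 0.881).

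AREG, EREG and BTC are neighbours on chromosome 4, at chr4:74445134-74455009, chr4:74365143-74388751 (both plus strand) and chr4:74744759-74794686 (minus strand). Of these, AREG rose and the others did not pass. HBEGF lies at chr5:140332843-140346631 and TGFA at chr2:70447280-70554193, both on the minus strand.

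NRG1, the neuregulin that binds ERBB3 and ERBB4, stood at 7.96, 7.03 and 6.26 CPM with DMSO and at 8.02, 7.33 and 8.02 CPM with erianin. The groups overlapped, and the log2 fold change of 0.14 ± 0.13 did not pass (95% interval from -0.17 to 0.45, edgeR adjusted p = 0.523). Of the 6 ligands, 3 rose by the adjusted p, none fell, and BTC, EREG and NRG1 did not pass, beside 7.22% of all genes higher and 7.69% lower. Without DMSO replicate 3 the same 3 rose and none fell, beside 27.5% of all genes higher and 27.7% lower. With the replicate number as a block in the fit, AREG alone of the ligands passed.

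ERRFI1, whose transcription is a feedback response to EGFR activity in many cells, stood at 331, 306 and 404 CPM with DMSO and at 367, 407 and 385 CPM with erianin. DMSO replicate 3 lay among the erianin libraries, above the other DMSO libraries. With it, the log2 fold change was 0.15 ± 0.11 and did not pass (95% interval from -0.10 to 0.41, edgeR adjusted p = 0.392). Without it, the value was 0.27 ± 0.04 and passed (edgeR adjusted p = 4.54e-06). On log2(TPM + 1), where the median of all genes lay at 0.17, ERRFI1 was at 0.36 ± 0.09 (limma adjusted p = 0.0432). With TPM rescaled to equal totals it was at 0.18 ± 0.15 and did not pass (limma adjusted p = 0.497). ERRFI1 lies at chr1:8004404-8026308 (minus strand).

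**Figure D2:**
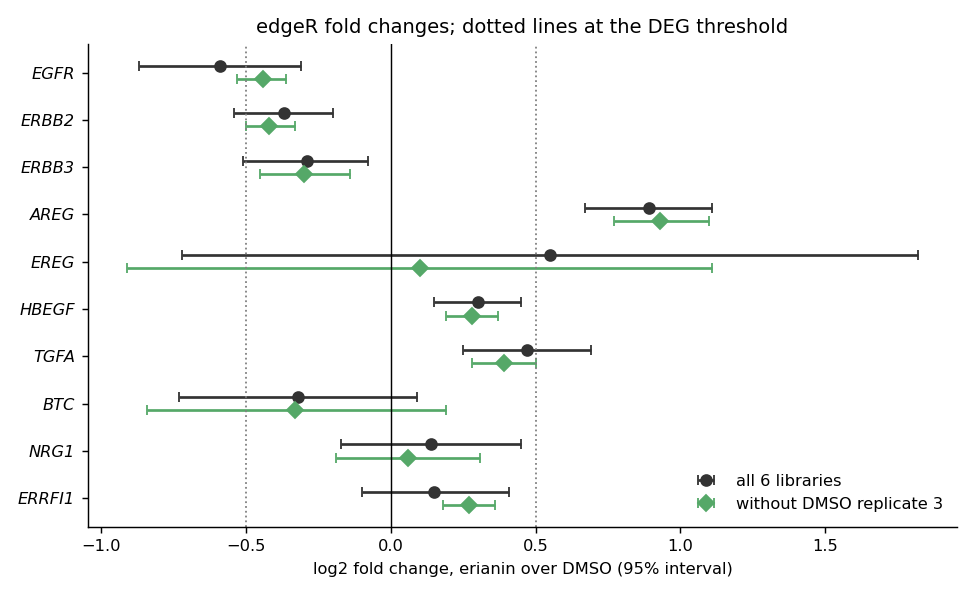
Log2 fold change of each gene, erianin over DMSO, with its 95% interval, from edgeR on all 6 libraries (black circles) and without DMSO replicate 3 (green diamonds), with dotted lines at the DEG threshold of 0.5 in either direction. AREG lies at 0.89 and 0.93, beyond the threshold in both fits, whereas EGFR moves from -0.59 to -0.44; the widest interval is that of EREG.

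Levels of different genes were compared in TPM, which is scaled by gene length. With DMSO the order was ERRFI1 (272 ± 25.5 TPM, SD, n = 3), HBEGF (174 ± 13.5), EGFR (68.1 ± 7.95), TGFA (36.9 ± 5.19), AREG (30.6 ± 0.15), ERBB2 (26.4 ± 2.78), ERBB3 (4.76 ± 0.271), BTC (3.40 ± 0.368), NRG1 (1.25 ± 0.201) and EREG (0.282 ± 0.190). With erianin AREG followed HBEGF, at 65.0 ± 2.25 TPM, and TGFA came next, at 58.4 ± 2.97 TPM, both above EGFR at 52.2 ± 0.877 TPM. The order of the other genes was the same in both groups. Neighbours in each order did not overlap between libraries, although TGFA and AREG in DMSO replicate 3 were at 30.9 and 30.8 TPM.

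**Figure D3:**
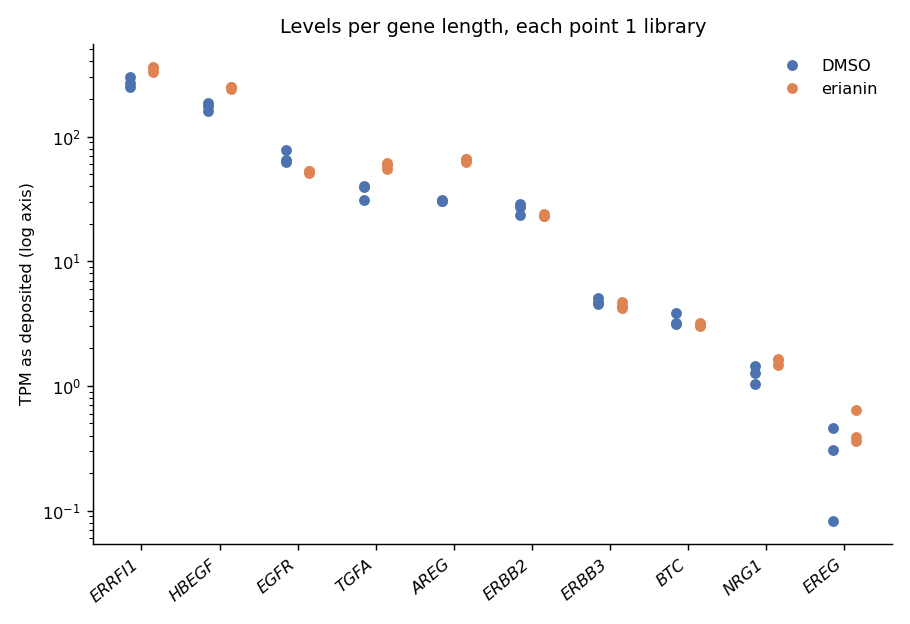
Deposited TPM of the 10 genes on a log axis, with each point 1 library and genes ordered by their mean in DMSO (blue) beside erianin (orange). AREG, at 30.6 TPM on average with DMSO, lies at 65.0 TPM with erianin, above EGFR at 52.2 TPM.

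Ratios within a library do not depend on how libraries are scaled to each other. The summed TPM of the 6 ligands was 251, 263 and 226 with DMSO and 370, 373 and 379 with erianin. That of the 3 receptors was 94.7, 98.0 and 105 with DMSO and 81.1, 80.5 and 78.6 with erianin. The ratio of ligand to receptor transcripts was accordingly 2.65, 2.68 and 2.15 in the DMSO libraries and 4.57, 4.63 and 4.82 in the erianin libraries, with no overlap. On a log2 scale the ratio was 1.31 ± 0.18 (SD, n = 3) with DMSO and 2.22 ± 0.04 with erianin, a difference of 0.91, and the difference was 0.81 without DMSO replicate 3. No p is given for these sums, because the genes were chosen with results of these data known.

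Among ligand transcripts, AREG made up 12.2%, 11.6% and 13.6% of the summed TPM with DMSO and 16.9%, 17.7% and 17.6% with erianin. The share of HBEGF was 70.6% ± 0.696 (SD, n = 3) with DMSO and 65.6% ± 1.2 with erianin, also without overlap. TGFA made up 14.9% ± 1.10 with DMSO and 15.6% ± 0.746 with erianin, and its groups overlapped. The difference in the AREG share was 4.92 percentage points, or 2.95 when raw reads replaced TPM.

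Among receptor transcripts, EGFR made up 66.4%, 65.6% and 73.5% with DMSO and 64.9%, 65.7% and 65.2% with erianin. The groups overlapped, and the difference of means, -3.21 percentage points, was -0.693 without DMSO replicate 3. ERBB2 overlapped too, at 26.7% ± 3.93 (SD, n = 3) with DMSO and 29.2% ± 0.29 with erianin. The share of ERBB3 was 4.81% ± 0.462 with DMSO and 5.55% ± 0.215 with erianin, above it in every library.

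**Figure D4:**
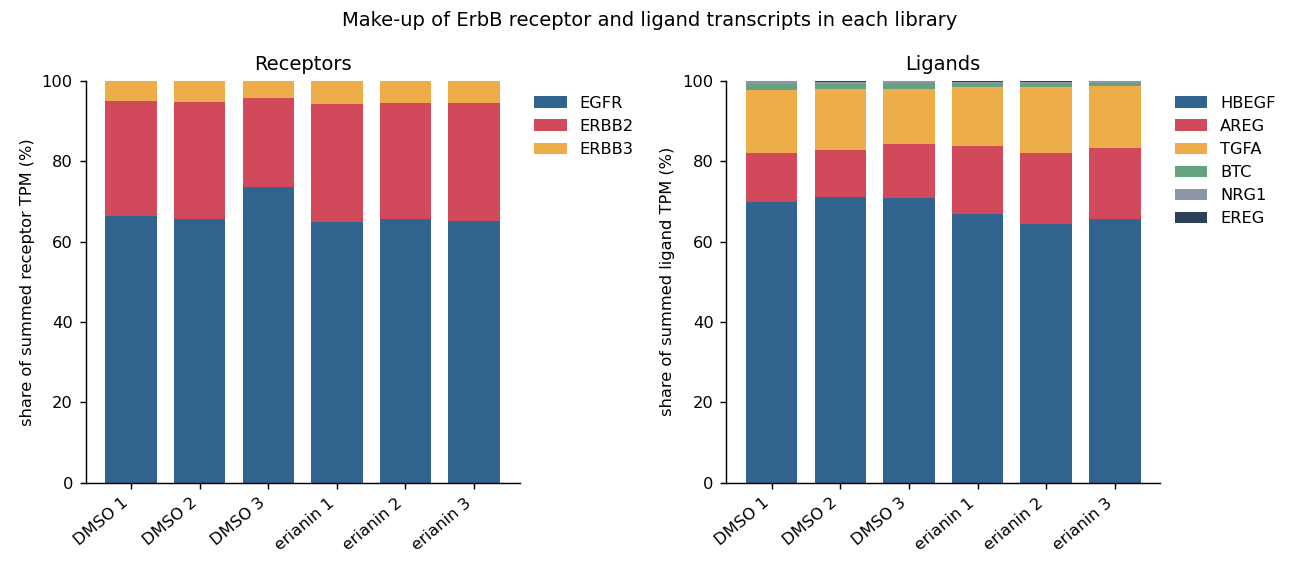
Share of each receptor (left) and each ligand (right) in the summed receptor or ligand TPM of each library, in percent, as stacked bars. AREG takes 11.6% to 13.6% of ligand TPM in DMSO libraries and 16.9% to 17.7% in erianin libraries, and EGFR takes 73.5% of receptor TPM in DMSO replicate 3 and 64.9% to 66.4% in the others.

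The rest of the pathway was followed through 59 further genes, of which 58 were in the tables, PIK3R2 was not analysed here and 54 could be tested. By the adjusted p, 3 were higher with erianin and 5 were lower, of which SOCS5 (higher) and ADAM19 (lower) were DEGs. The shares, 3 and 5 of 54, stand beside 7.22% and 7.69% of all genes tested. The median log2 fold change over the 54 genes was 0.02. Without DMSO replicate 3, 21 of the 54 were higher and 16 lower, beside 27.5% and 27.7% of all genes.

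Other members of the family were at few or no reads. ERBB4, the remaining receptor, had 2 to 13 reads per library, and EGF, the founding ligand, had 12 to 36. NRG2 had 32 to 58 reads and NRG4 at most 2. EPGN and NRG3 had no reads in any library. The approximate 95% upper bound on their expected count is then 3 reads, or 0.0857 to 0.123 CPM, per library. ERBB4, EGF and NRG2 could be tested and none passed, with log2 fold changes of 0.62 ± 0.60, 0.56 ± 0.33 and -0.38 ± 0.34 (edgeR adjusted p = 0.529, 0.293 and 0.498).

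Of 9 genes of ligand shedding, none rose, 2 fell and 7 did not pass, beside 7.22% of all genes higher and 7.69% lower. Leaving out DMSO replicate 3, 2 rose, 4 fell and 3 did not pass, beside 27.5% and 27.7%. ADAM19, a metalloprotease that can cut neuregulin precursors, stood at 38.3, 44.7 and 40.5 CPM with DMSO and 25.3, 26.4 and 27.2 CPM with erianin. The groups were apart, with a log2 fold change of -0.65 ± 0.09 (edgeR adjusted p = 0.00678). RHBDF2 (iRhom2), which carries the protease ADAM17 to the surface, stood at 61.5, 70.2 and 63.5 CPM with DMSO and 49.2, 50.4 and 51.9 CPM with erianin. Its log2 fold change of -0.37 ± 0.08 passed (edgeR adjusted p = 0.0272), and without DMSO replicate 3 it was -0.39 ± 0.06. ADAM17 itself, the main protease for AREG and TGFA, did not pass at 0.26 ± 0.11 (edgeR adjusted p = 0.15), and passed at 0.34 ± 0.07 without DMSO replicate 3 (edgeR adjusted p = 7.45e-05). ADAM9 and RHBDF1, the most abundant of the list per length, did not pass either, at 0.13 ± 0.12 and -0.09 ± 0.08 (edgeR adjusted p = 0.51 and 0.521). ADAM9 passed without DMSO replicate 3, at 0.29 ± 0.04 (edgeR adjusted p = 8.51e-07), and RHBDF1 did not (edgeR adjusted p = 0.0665).

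Of 21 adaptors and effectors tested, 2 rose, 3 fell and 16 did not pass, beside the same 7.22% and 7.69% of all genes. When DMSO replicate 3 was left out, 9 rose, 8 fell and 4 did not pass, beside 27.5% and 27.7%. PTPN11 (SHP2), a phosphatase needed for Ras activation by many receptors, rose from 162, 165 and 184 CPM to 213, 226 and 216 CPM, a log2 fold change of 0.36 ± 0.08 (edgeR adjusted p = 0.0213). STAT3, a transcription factor that tyrosine kinases activate, rose from 89.0, 92.4 and 93.7 CPM to 112, 115 and 109 CPM, a log2 fold change of 0.29 ± 0.07 (edgeR adjusted p = 0.0286). SHC1, the adaptor that links ErbB receptors to GRB2, fell from 497, 521 and 454 CPM to 371, 378 and 375 CPM, a log2 fold change of -0.39 ± 0.07 (edgeR adjusted p = 0.015). The groups were apart for each of these genes. The kinase SRC and VAV2 fell with log2 fold changes of -0.35 ± 0.09 and -0.30 ± 0.07 (edgeR adjusted p = 0.0431 and 0.0318). The adaptor CRKL, which with SHC1 had the highest mean TPM of the list, did not pass at 0.27 ± 0.10 (edgeR adjusted p = 0.114), and passed at 0.16 ± 0.04 without DMSO replicate 3 (edgeR adjusted p = 0.00151).

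Of 21 genes of receptor turnover and inhibition tested, 1 rose, none fell and 20 did not pass, beside 7.22% and 7.69% of all genes. In the fit without DMSO replicate 3, 10 rose, 4 fell and 7 did not pass, beside 27.5% and 27.7%. SOCS5, which promotes the breakdown of EGFR, rose from 5.38, 6.01 and 7.10 CPM to 9.34, 9.88 and 10.9 CPM, without overlap. Its log2 fold change was 0.70 ± 0.14 (edgeR adjusted p = 0.0185), and 0.81 ± 0.13 without DMSO replicate 3. The endosomal GTPase RAB7A and the phosphatase PTPN1, the most abundant of the list per length, did not pass at 0.07 ± 0.11 and 0.02 ± 0.07 (edgeR adjusted p = 0.741 and 0.898). RAB7A passed without DMSO replicate 3, at 0.20 ± 0.04 (edgeR adjusted p = 9.01e-05), and PTPN1 did not (edgeR adjusted p = 0.48). All 8 pathway genes that passed also passed without DMSO replicate 3. ADAM19 lost the call only with an erianin library left out, and the other 7 with any library but DMSO replicate 3 left out. The edgeR adjusted p-values then reached 0.0525 for ADAM19, 0.099 for SOCS5, 0.119 for RHBDF2, 0.112 for PTPN11, 0.139 for STAT3, 0.0892 for SHC1, 0.169 for SRC and 0.156 for VAV2.

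**Figure D5:**
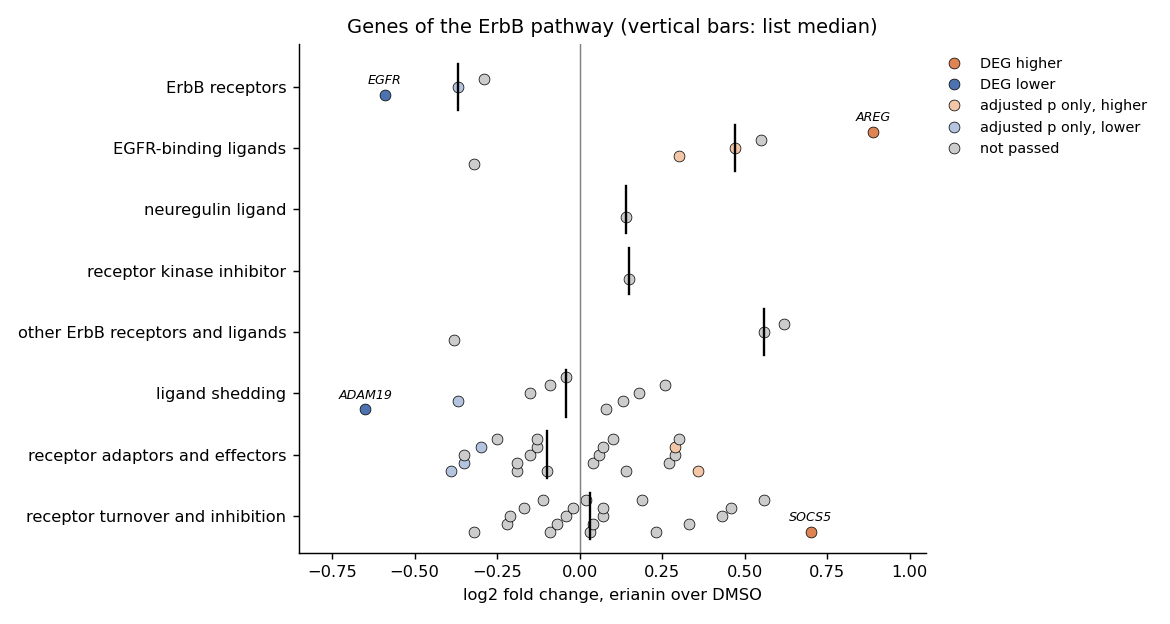
Log2 fold change, erianin over DMSO, of every tested gene in each list of the pathway, with each point 1 gene, colour showing the edgeR call and a vertical bar at the median of the list. The receptors lie between -0.59 and -0.29; the DEGs EGFR, AREG, ADAM19 and SOCS5 are named, and the shedding, adaptor and turnover lists have medians of -0.04, -0.10 and 0.03.

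The genes whose profile over the 6 libraries was most like that of EGFR were TANC2, POU2F2 and CCDC80 (Pearson r of log2 CPM 0.9994, 0.9979 and 0.9979), with log2 fold changes of -0.51, -0.54 and -0.33. Those most like AREG were MRPL13, OSGIN1 and TFPI2 (r 0.9992, 0.9992 and 0.9991), with log2 fold changes of 0.34, 1.20 and 0.99. They are the closest of all genes tested with a mean of at least 1 CPM, the 6 points share the 2 treatment groups and, for EGFR, the high DMSO replicate 3, and the values are a description only.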

How the data were processed

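For 6 libraries, raw counts of reads on each gene and TPM, which scales counts by gene length and library total, were deposited by the authors. The submitters' processing notes name fastp 0.23.2, STAR 2.7.10, featureCounts 2.0.1 and StringTie 2.2.1 and the build GRCh38, without roles; strand use is not given in the sources used here. Of 65807 rows, 26480 without an identifier (at most 0.00515% of counts) were left out. TPM columns sum to 59.1% (DMSO replicate 3) to 78.3% of their nominal total of 1000000, so levels in TPM depend on a total that differs between libraries.

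Counts were tested with edgeR 4.0.16 (TMM, filterByExpr by group, glmQLFit, glmQLFTest; R 4.3.3) over all genes; standard errors derive from the quasi-likelihood F statistic. Alternatives used DESeq2 1.42.0, limma 3.58.1 on log2 TPM, other factors and filters, a replicate block and each library left out. Removal of a GC trend (loess, span 0.5) and rescaled TPM were chosen after seeing the data. Fits were also run on simulated counts that held no outlying library, and the outcome is not reported here. Coordinates are from GENCODE release 29, promoters from RefSeq.

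Members and lists were chosen with earlier results of these data known. Named genes were all 10 members, called pathway genes (up to 6 per list by adjusted p), the 2 most abundant of each list, all other ErbB family genes, markers, and the 3 genes closest in profile to EGFR and AREG. ADAM17 was named outside this rule, after its value was seen. The labels do not tie same-numbered libraries to a shared culture, so no block entered the reported fit. Exact permutation tests of the ratios were run, but their p-values are not used. One marker gene that the rule selects is not reported here.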

Additional observations from a re-analysis of the deposited data

How the results depend on the processing

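The log2 fold change of AREG passed the adjusted p under all 18 alternatives, from 0.63 (GC trend removed, without DMSO replicate 3) to 1.08 (limma on log2(TPM + 0.1)). EGFR no longer passed the adjusted p in 6 of 18 (and was no DEG in 10), ERBB2 in 9, HBEGF in 7 and TGFA in 5, each with its direction kept, and ERBB3, ERRFI1 and BTC came to pass in 4, 4 and 1. EREG and NRG1, which did not pass, turned to -0.24 and -0.07 with the GC trend removed without DMSO replicate 3. Members called higher as DEGs, 1 of 10, numbered 2 with upper-quartile factors and in limma on log2(TPM + 1), on log2(TPM + 0.1) and without a filter; with a log2 fold change over 1 required 0 were called in either direction, and with no fold-change threshold 3 higher and 2 lower. Members called lower, 1 of 10, numbered 0 in every limma fit on TPM, rescaled or not, where between 0.487% and 2.17% of all genes were called lower and between 4% and 10.3% higher. TPM moved the median of all genes by 0.17 (pseudocount 1), 0.20 (pseudocount 0.1) and 0.12 (no filter); against that median EGFR was at -0.55 and AREG at 0.89 on log2(TPM + 1), where TPM by itself gave EGFR -0.37. Pathway genes called, 1 higher and 1 lower, numbered 2 and 0 on log2(TPM + 1) with or without the filter, 3 and 0 on log2(TPM + 0.1), 0 and 0 over a log2 fold change of 1, 3 and 5 with no fold-change threshold, and 2 lower with the GC trend removed. With each library left out, members called ranged from 1 to 2 higher and from 0 to 1 lower, and pathway genes from 0 to 3 higher and from 0 to 1 lower. The cause of these shifts was not tested.

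Deviations of same-numbered libraries from their group means had correlations of -0.0119, 0.00297 and -0.059. The DMSO means include the outlying DMSO replicate 3, so these values cannot decide whether the libraries were paired. With the replicate block, AREG alone of the members passed (0.89, edgeR adjusted p = 0.0233), members called numbered 1 higher and 0 lower, EGFR stood at -0.57 (adjusted p = 0.0512), and calls over all genes were 384 higher and 281 lower against 688 and 431. DESeq2 called 852 and 531, upper-quartile factors 822 and 299, log2(TPM + 1) 1098 and 94, the fit without DMSO replicate 3 1485 and 797, and the fits without an erianin library 172 to 184 and 126 to 144. EREG, ERBB4 and NRG4 had at most 22, 13 and 2 reads in a library.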

Other observations

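Other genes that describe the line moved as well. PAX8, the thyroid lineage transcription factor, stood at 645, 643 and 739 CPM with DMSO and 433, 433 and 419 CPM with erianin. It fell by a log2 fold change of -0.66 ± 0.08 (edgeR adjusted p = 0.00403), passed whichever library was left out, and was -0.59 ± 0.04 without DMSO replicate 3. VIM, the intermediate filament of mesenchymal cells, had a log2 fold change of -0.47 ± 0.11 (edgeR adjusted p = 0.03) and KRT7, a simple-epithelial keratin, of -0.37 ± 0.10 (edgeR adjusted p = 0.0497). VIM passed in 2 and KRT7 in 1 of the 6 fits that leave out a library (edgeR adjusted p up to 0.131 and 0.189). KRT8, KRT18, KRT19 and EPCAM did not pass, at 0.01, -0.21, -0.21 and 0.26. Without DMSO replicate 3 they were at -0.11, -0.31, -0.40 and 0.33 and passed (edgeR adjusted p = 0.0263, 1.51e-07, 1.24e-09 and 0.000912). Of the 6 carcinoma markers, none rose, 2 fell and 4 did not pass, beside 7.22% of all genes higher and 7.69% lower; without DMSO replicate 3, 1 rose and 5 fell, beside 27.5% and 27.7%. FOXE1, the other thyroid factor with reads, did not pass at 0.03 ± 0.29, nor did CD14 at 0.53 ± 0.25 (edgeR adjusted p = 0.963 and 0.2). How far these changes move with those of the ErbB genes was not tested.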
